A study of Gallus gallus with 6 samples.

Results

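Matrix metalloproteases (MMPs), their tissue inhibitors (TIMPs), the ADAMTS proteases and the ADAMTS-like proteins (ADAMTSL) were followed in the regenerating auditory epithelium of the chick. Members were every row of the gene table whose symbol was MMP, ADAMTS, TIMP or ADAMTSL followed only by a number, which gave 38 of 25619 genes. They comprised 13 MMP, 3 TIMP, 18 ADAMTS and 4 ADAMTSL genes.

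The study cultured cochlear ducts of chicks (Gallus gallus) taken on post-hatch day 1. All ducts received streptomycin (SM), which destroys hair cells, for 48 h. 3 libraries labelled day 3 came from SM alone (SM control) and 3 from SM followed by BQ788, an antagonist of the type B endothelin receptor whose dose is not given in the sources used here. The basilar papilla, the hearing epithelium of birds, was freed with thermolysin at 500 µg/ml, and each library was made by bulk RNA-seq. No group without SM was analysed here, so every value describes damaged epithelium. Whether the replicates were separate animals or cultures is not labelled, and the p-values therefore reflect spread between libraries that may be technical.

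MMPs are zinc enzymes that cut collagens, proteoglycans and cell surface proteins, either after secretion or from the cell membrane. TIMPs bind the active site and block it, and TIMP3 also blocks several ADAM and ADAMTS enzymes. ADAMTS proteases carry thrombospondin repeats and are known mainly for cutting proteoglycans such as versican and aggrecan and for trimming procollagens, while ADAMTSL proteins share the repeats but have no protease domain. All are regulated after translation as well, so the transcript levels below are not protease activities.

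Levels are FPKM, which divides reads by the length of the gene and by a library size, and can therefore be compared between genes. Reads recovered from these values summed to between 15438305 and 17375656 per library. The library size implied by the values was 0.948 (BQ788 replicate 3) to 1.06 (BQ788 replicate 1) times that sum, so the divisor was not the plain read total. With these implied sizes, 3 reads in a gene of 1 kb corresponded to 0.169 to 0.193 FPKM. The labelled tissue was checked against 7 supporting cell markers, whose summed level was 1486 to 1833 FPKM in SM control and 1269 to 1735 FPKM with BQ788. Of these, all tested, 1 passed in limma, lower with BQ788 (FGFR3, adjusted p = 0.0415, but 0.0682 without the filter on low genes and 0.0549 with eBayes without a trend; it passed when BQ788 replicate 1 was left out and not when any other library was), and 3 passed at an unadjusted p of 0.05. At that unadjusted p, FGFR3 and TECTA were lower with BQ788 and LFNG was higher. LFNG was at 46.1, 44.3 and 43.3 FPKM in SM control and 54.0, 53.4 and 53.8 FPKM with BQ788. It did not pass after adjustment (log2 fold change 0.27, limma adjusted p = 0.05155). The 7 hair cell markers summed to 69.4 to 93.8 FPKM in SM control and 51.5 to 65.1 FPKM with BQ788. Of these 6 were tested and 0 passed in limma after adjustment, but all 6 passed at an unadjusted p of 0.05, with a median log2 fold change of -0.44, and in 4 of them the groups did not overlap. Over all genes tested, 2.99% passed in limma after adjustment, 22.7% passed at an unadjusted p of 0.05 and 29.3% had groups that did not overlap. The part of these markers in the members' values was not tested. Markers of other tissues were also present: 9 fibroblast and mesenchyme genes summed to 195 to 264 FPKM in SM control and 127 to 325 FPKM with BQ788, 7 macrophage and leukocyte genes to 11.3 to 26.1 and 18.4 to 38.9 FPKM, and 5 endothelial genes to 13.4 to 14.2 and 9.64 to 16.4 FPKM. Of the endothelial genes KDR, CDH5 and TEK had a mean under 1 FPKM, and PECAM1 alone had a mean of 10.4 FPKM in SM control. Of 7 cartilage markers 3 (ACAN, SNORC and MATN1) had a mean under 1 FPKM. No marker named in these lists was at 0 in all libraries. In bulk RNA, fewer cells of a type and less RNA per cell cannot be told apart.

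Detection was broad but very uneven. Of the 38 genes, 35 had reads in all 6 libraries and 29 had a mean of at least 1 FPKM, the level required for testing. These 29 were 8 MMP, 3 TIMP, 15 ADAMTS and 3 ADAMTSL genes. Only 6 genes exceeded a mean of 10 FPKM, namely TIMP3, ADAMTS1, TIMP2, MMP9, MMP2 and MMP15, and together they held 90.0% of the summed level of all 38. The gap below them was wide, from a mean of 82.6 FPKM for MMP15 to 8.71 FPKM for ADAMTS12.

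**Figure D1:**
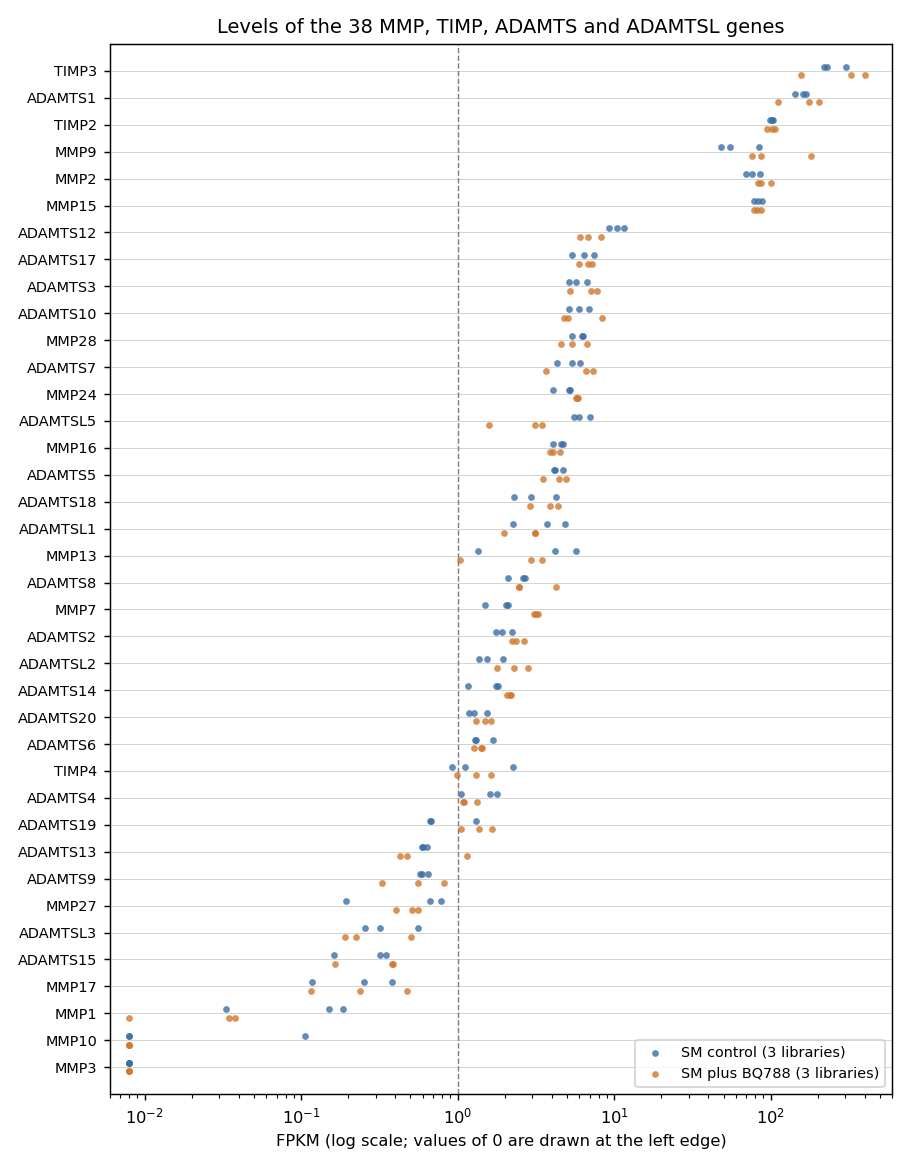
FPKM of the 38 genes (log axis) in each of the 3 SM control and 3 SM plus BQ788 libraries, ordered by mean; each point is 1 library and the dashed line marks 1 FPKM. The 6 genes from TIMP3 to MMP15 lie apart from the rest, which start at a mean of 8.71 FPKM, and MMP3 was at 0 in all libraries.

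The order at the top was set by TIMP3 (mean 272 FPKM, the gene ranked 192 of the whole table), ADAMTS1 (161), TIMP2 (101), MMP9 (88.4), MMP2 (83.6) and MMP15 (82.6). The ranges of TIMP3 and ADAMTS1 over the libraries overlapped, from 156 to 398 FPKM and from 112 to 203 FPKM. Within each library TIMP3 was above ADAMTS1, with a ratio of 1.36, 1.51 and 1.89 in SM control and 1.39, 1.62 and 2.26 with BQ788. TIMP2 lay below every ADAMTS1 value, at 94.3 to 106 FPKM. MMP9, MMP2 and MMP15 were not separable in level, since MMP9 alone spanned 47.8 to 180.0 FPKM. The 3 TIMP genes summed to 322 to 409 FPKM in SM control, against 239 to 251 FPKM for the 13 MMP genes. That order depends on the rule for members: with LOC121108129, a row described as matrix metalloproteinase-14-like that has no MMP symbol, the MMP sum was 354, 343 and 325 FPKM in SM control, above the TIMP sum in replicates 1 and 2.

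Comparing SM plus BQ788 with SM control asked which of these genes differ when the receptor is blocked during regeneration. No member reached an adjusted p of 0.05 in limma, fitted on log2(FPKM + 1) over the 11857 genes that passed the level for testing, where 2.99% of genes were called (0.751% higher and 2.24% lower). Limma voom on recovered reads also called 0 of the 29. With the replicate number as a block, limma called 4 (MMP9, ADAMTSL5, MMP7 and ADAMTS12) and 749 of all genes tested. In the main fit, without a block, 4 members passed at an unadjusted p of 0.05 (MMP7, ADAMTSL5, ADAMTS12 and MMP24). That is 13.8% of those tested against 22.7% of all genes. The groups did not overlap in 6 members (20.7%), 4 of them higher with BQ788 and 2 lower, against 29.3% of all genes tested (15.2% higher and 14.1% lower). Both shares lay below the background. Log2 fold changes (SM plus BQ788 minus SM control) over 0.5 in size were found in 4 members (MMP9, ADAMTSL5, MMP7 and ADAMTS12), 13.8% of those tested, above the 5.63% of all genes. Of the 29 fold changes, 16 were above 0 and 13 below, with a median of 0.06 beside 0.02 over all genes. Fold changes on this scale understate those of low genes.

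**Figure D2:**
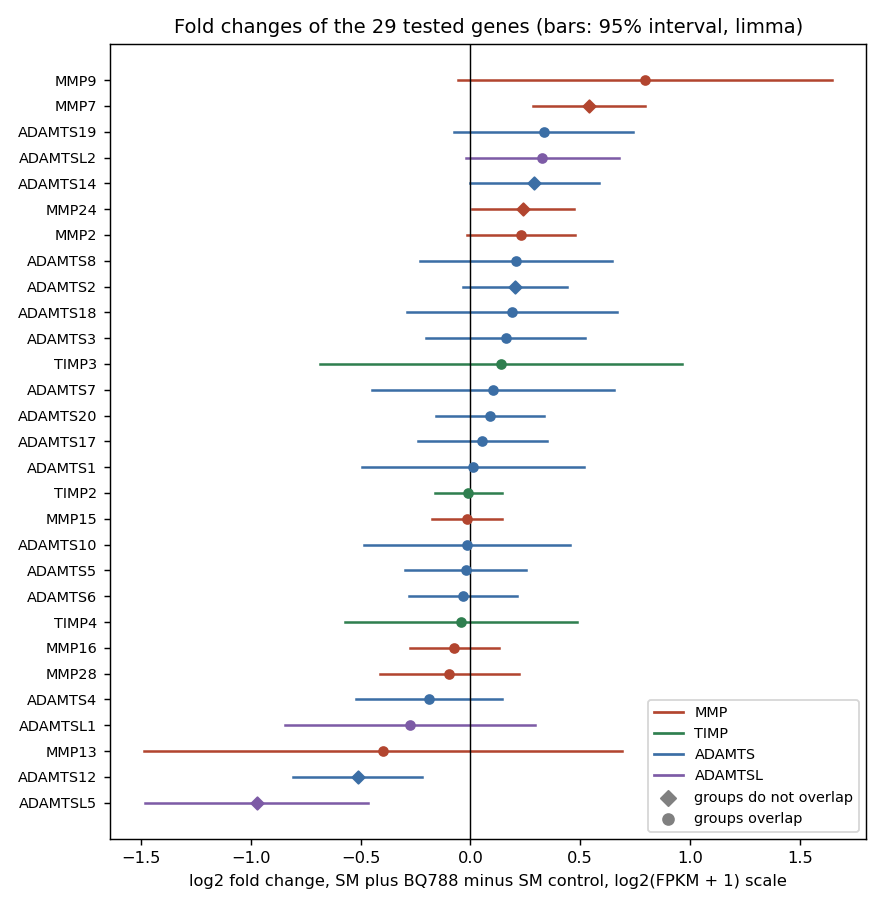
Log2 fold change of the 29 tested genes on the log2(FPKM + 1) scale, with 95% intervals from limma; colours mark the family and diamonds the 6 genes whose groups do not overlap. Intervals of TIMP2 and MMP15 are narrow around 0, those of MMP9, TIMP3 and MMP13 are wide, and no gene passed after adjustment in this fit.

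Among the MMPs, MMP7 came closest to the threshold. MMP7 encodes matrilysin, a small secreted MMP made by many epithelia. Its row in the deposited annotation lists the catalytic matrixin domain but not the hemopexin domain, which is listed for 9 other MMPs. It stood at 1.496, 2.05 and 2.09 FPKM in SM control and 3.10, 3.24 and 3.17 FPKM with BQ788. The 3 BQ788 libraries were close together and all above the controls. The log2 fold change was 0.54 (SE 0.11, 95% interval 0.29 to 0.80, limma adjusted p = 0.0525). These values rest on 28, 34 and 35 reads in SM control and 58, 58 and 52 reads with BQ788, a counting error of 13.1% to 18.9% per library. The 3 BQ788 libraries lay closer together than this counting error, so their spread, and with it the SE, may be too small. MMP7 lies on chromosome 1 from 182405345 to 182409907 (GRCg7b, here and below) and overlaps no other row of the table. The adjusted p was 0.0909 in limma voom, 0.0444 after quantile normalization, 0.0491 with eBayes without a trend and 0.0451 without BQ788 replicate 1, so its side of the threshold depended on these choices.

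**Figure D3:**
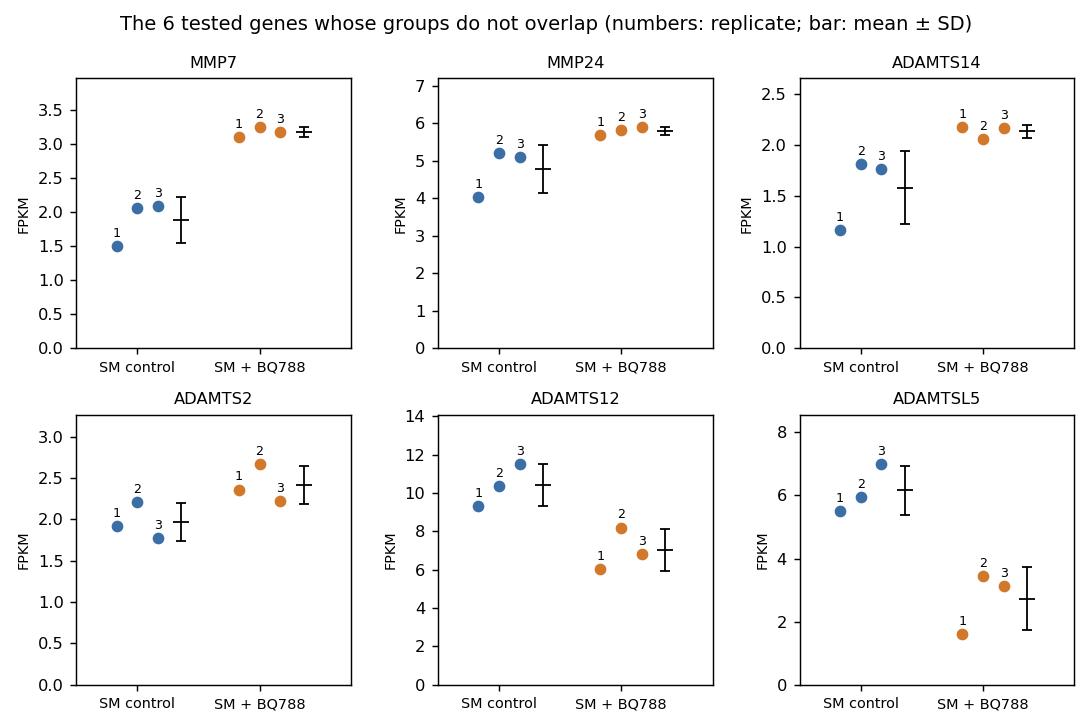
FPKM per library of the 6 tested genes whose groups do not overlap; points are libraries numbered by replicate, and the bar gives mean ± SD of the 3 libraries of a group. MMP7, MMP24, ADAMTS14 and ADAMTS2 are higher with BQ788 and ADAMTS12 and ADAMTSL5 lower. None passed an adjusted p of 0.05 in the main limma fit.

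MMP7 is the last of 6 MMP genes that lie in 1 row on the plus strand of chromosome 1, over 131.6 kb from 182278268 to 182409907. Most of its neighbours were barely detected. MMP3, a stromelysin, had 0 reads in all libraries. That allows up to 0.114 FPKM in BQ788 replicate 3, the library of smallest implied size (3 reads, counting error only). MMP10, the other stromelysin, had 3 reads in SM control replicate 3 and none elsewhere. MMP1, the interstitial collagenase, had 12 reads over the 6 libraries. MMP27 ranged from 0.193 to 0.782 FPKM. The deposited description of the MMP27 row reads matrix metallopeptidase 1, the same as that of the MMP1 row, so the naming of these rows is uncertain. At the opposite end of the row MMP13, a collagenase known for cutting collagen II of cartilage, was at 1.34, 4.19 and 5.73 FPKM in SM control and 1.04, 2.95 and 3.45 FPKM with BQ788. Its replicate 1 was the lowest library of each group and the groups overlapped widely (log2 fold change -0.40, SE 0.45, limma adjusted p = 0.650).

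**Figure D4:**
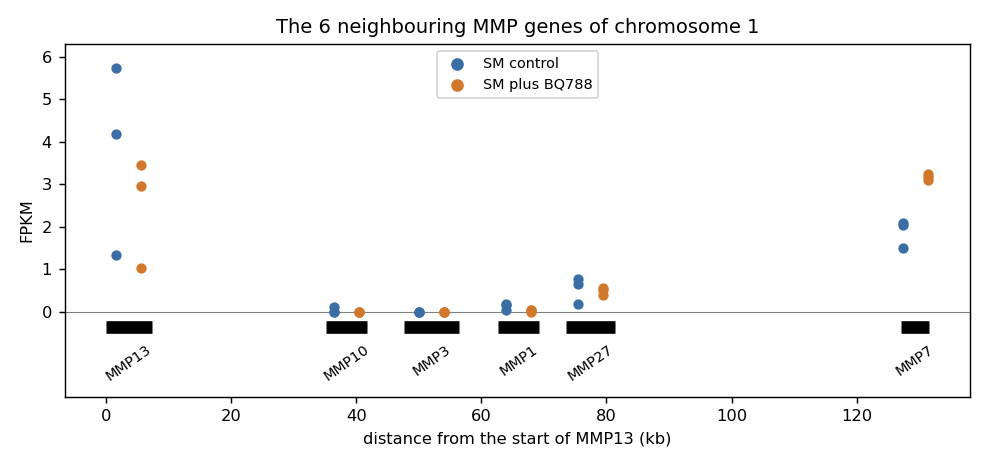
FPKM per library of the 6 MMP genes of the chromosome 1 row against distance from the start of MMP13 in kb; black bars are the genes to scale and points are libraries. MMP13 and MMP7, at the ends of the row, exceeded a mean of 1 FPKM, and the 4 genes between them stayed below it.

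The gelatinases MMP2 and MMP9 cut denatured collagens and collagen IV of basement membranes, and were the only members whose annotation lists fibronectin type II domains. MMP9 was at 84.4, 55.3 and 47.8 FPKM in SM control and 180.0, 75.8 and 87.2 FPKM with BQ788. BQ788 replicate 1 was the highest library, and the groups overlapped because SM control replicate 1 exceeded BQ788 replicate 2. The log2 fold change had the largest size among the tested MMPs but a wide error (0.79, SE 0.36, 95% interval -0.06 to 1.65, limma adjusted p = 0.246), and was 0.42 without BQ788 replicate 1. The macrophage and leukocyte markers shared part of this order: their sum was 26.1, 18.4 and 11.3 FPKM in SM control and 38.9, 21.1 and 18.4 FPKM with BQ788, with replicate 1 highest in each group. In BQ788 replicate 3 MMP9 was second-highest, at 87.2 FPKM beside 84.4 FPKM in SM control replicate 1. The marker sum of that library, 18.4 FPKM, was below those of BQ788 replicate 2 and SM control replicate 1. It was level with that of SM control replicate 2. Single markers differed in their order. C1QA, C1QB, C1QC and CSF1R were each highest in BQ788 replicate 1. SPI1 was highest in SM control replicate 1, at 1.91 FPKM beside 1.84 FPKM in BQ788 replicate 1. CYBB was also highest in SM control replicate 1 (0.726 FPKM) and PTPRC in SM control replicate 3 (0.914 FPKM). Of these 7 markers 5 were tested and 0 passed in limma, and 0 passed at an unadjusted p of 0.05. The leukocyte markers PTPRC and CYBB had means under 1 FPKM and none of the 7 was at 0 throughout. Their part in the MMP9 values was not tested.

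MMP2 varied less, at 69.8, 75.8 and 84.9 FPKM in SM control and 83.2, 86.9 and 101 FPKM with BQ788. The groups overlapped slightly (log2 fold change 0.23, SE 0.10, limma adjusted p = 0.241). The ratio of MMP9 to MMP2 levels was 1.21, 0.730 and 0.563 in SM control and 2.16, 0.871 and 0.863 with BQ788, so which gelatinase transcript was the more abundant differed between libraries of the same group. MMP9 lies on chromosome 20 from 10914732 to 10918856 and MMP2 on chromosome 11 from 3350875 to 3385583.

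Membrane-type MMPs act at the cell surface. MMP15 was the steadiest of the abundant MMPs, at 78.8, 87.6 and 82.6 FPKM in SM control and 82.0, 78.1 and 86.5 FPKM with BQ788. Its fold change was close to 0, with a 95% interval from -0.17 to 0.15 on the log2 scale (limma adjusted p = 0.930). MMP24 was at 4.05, 5.21 and 5.11 FPKM in SM control and 5.68, 5.82 and 5.90 FPKM with BQ788. All BQ788 libraries of MMP24 lay above the controls by a small margin (log2 fold change 0.24, SE 0.10, limma adjusted p = 0.212). MMP16 ranged from 3.92 to 4.70 FPKM over the 6 libraries, and MMP17 stayed at 0.116 to 0.474 FPKM and was not tested. MMP17 also overlaps ULK1 on the same strand, so reads in the shared stretch cannot be assigned with certainty. MMP28, epilysin, a secreted MMP of epithelia, ranged from 4.59 to 6.74 FPKM and the groups overlapped. MMP28 overlaps GAS2L2 on the same strand (GAS2L2 mean 0.329 FPKM).

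Of the inhibitors, TIMP2 was almost constant and TIMP3 was not. TIMP2, a secreted inhibitor that also takes part in activating MMP2 at the membrane, was at 98.4, 103 and 103 FPKM in SM control and 102, 94.3 and 106 FPKM with BQ788. Its 95% interval on the log2 scale ran from -0.16 to 0.14 (limma adjusted p = 0.951). TIMP2 overlaps CANT1 and USP36 on the same strand (means 6.51 and 5.98 FPKM), levels that are small beside TIMP2. TIMP3, the inhibitor that binds to the matrix, was at 229, 218 and 305 FPKM in SM control and 156, 328 and 398 FPKM with BQ788. BQ788 replicate 1 was the lowest of all libraries and the other two BQ788 libraries the highest, so the BQ788 group spanned the controls (log2 fold change 0.14, SE 0.34, 95% interval -0.68 to 0.96, limma adjusted p = 0.848). TIMP3 lies inside SYN3, on the opposite strand (SYN3 mean 4.32 FPKM). The use of strand in counting is not stated, but that level is small beside TIMP3. TIMP4 was low, at 2.27, 0.917 and 1.12 FPKM in SM control and 1.64, 0.997 and 1.31 FPKM with BQ788. Replicate 1 of TIMP4 was the highest library in both groups, and the groups overlapped. TIMP4 lies inside SYN2, on the opposite strand and at a similar level (SYN2 mean 1.09 FPKM), so its own level is uncertain.

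The ratio of inhibitor to protease transcripts overlapped between the groups. Summed TIMP over summed MMP levels was 1.31, 1.33 and 1.71 in SM control and 0.707, 1.61 and 1.70 with BQ788. BQ788 replicate 1 had the lowest ratio, with the highest MMP9 and the lowest TIMP3, and was the only library below 1. Being an extreme library was not particular to these genes. BQ788 replicate 1 was highest or lowest for 41.4% of the 29 tested members and 43.0% of all genes tested. For BQ788 replicate 3 these shares were 34.5% and 43.7%. With LOC121108129 among the MMPs the ratio was 0.929, 0.940 and 1.26 in SM control and 0.551, 1.25 and 1.37 with BQ788, so SM control replicates 1 and 2 also lay below 1 while BQ788 replicate 1 stayed lowest. The MMP sum was 251, 242 and 239 FPKM in SM control and 367, 262 and 298 FPKM with BQ788. Without MMP9 it was 166, 187 and 191 FPKM in SM control and 187, 186 and 210 FPKM with BQ788, and the groups overlapped. The sum of the fibroblast and mesenchyme markers was also highest in BQ788 replicate 1, at 325 FPKM. It was 127 and 167 FPKM in BQ788 replicates 2 and 3 and 264, 225 and 195 FPKM in SM control. Not every marker had this order. COL3A1 was at 14.1, 11.4 and 11.9 FPKM in SM control and 8.87, 4.61 and 7.49 FPKM with BQ788. FAP was highest in SM control replicate 1, at 14.5 FPKM beside 14.4 FPKM in BQ788 replicate 1. The other markers were each highest in BQ788 replicate 1. Of the 9 fibroblast and mesenchyme markers, all tested, 0 passed in limma, 1 passed at an unadjusted p of 0.05 (COL3A1, lower with BQ788) and none was at 0. Their part in the TIMP and MMP levels was not tested.

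**Figure D5:**
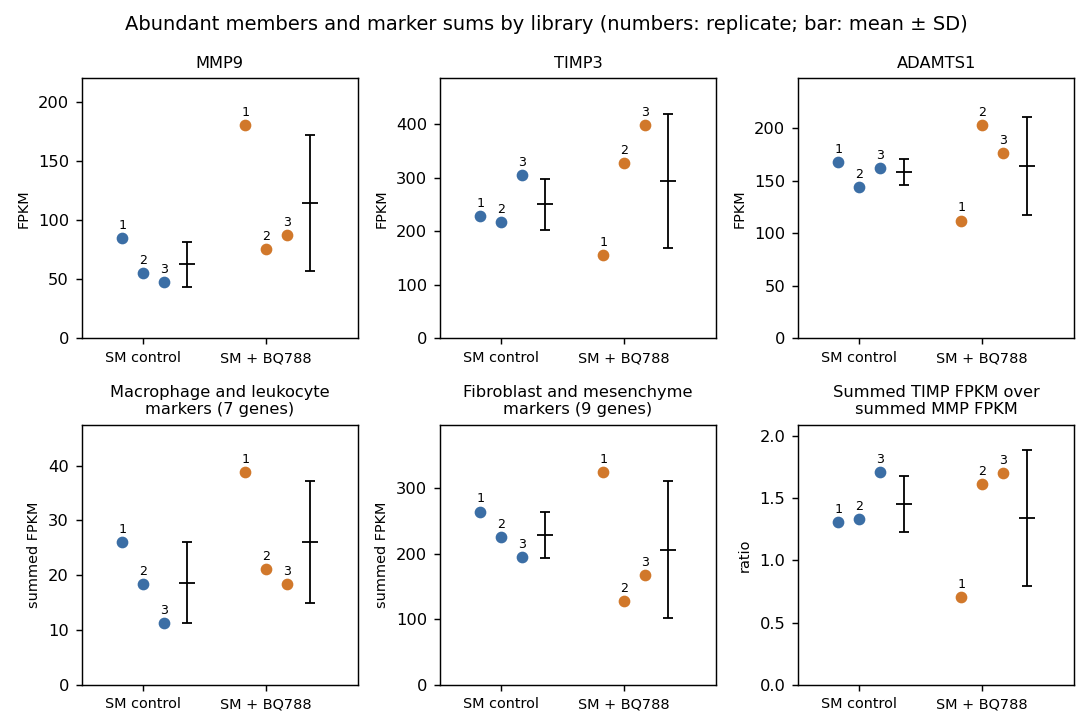
FPKM per library of MMP9, TIMP3 and ADAMTS1, summed FPKM of 7 macrophage and leukocyte and 9 fibroblast and mesenchyme markers, and the ratio of summed TIMP to summed MMP FPKM; points are libraries numbered by replicate, and the bar gives mean ± SD of a group. BQ788 replicate 1 is highest for MMP9 and both marker sums and lowest for TIMP3, ADAMTS1 and the ratio (0.707).

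ADAMTS1 was by far the most abundant ADAMTS gene and held 74.7% of the summed level of the 18. It encodes a protease known for cutting versican and aggrecan. It was at 168, 144 and 162 FPKM in SM control and 112, 203 and 176 FPKM with BQ788. As for TIMP3, BQ788 replicate 1 was the lowest library and the other two BQ788 libraries the highest (log2 fold change 0.01, SE 0.21, limma adjusted p = 0.983). ADAMTS5, another aggrecanase and its direct neighbour on chromosome 1 at a distance of 26.9 kb, was far lower at 3.53 to 4.90 FPKM, with overlapping groups. The other aggrecanase-type genes were low: ADAMTS8 ranged from 2.09 to 4.26 FPKM, ADAMTS20 from 1.19 to 1.62 FPKM and ADAMTS4 from 1.05 to 1.79 FPKM. ADAMTS9 ranged from 0.331 to 0.814 FPKM and ADAMTS15 from 0.163 to 0.385 FPKM, and neither was tested. ADAMTS4 overlaps a row of higher level (LOC100858962, mean 10.2 FPKM) on the opposite strand, so its own level is uncertain.

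ADAMTS12 and its relative ADAMTS7, both known for cutting the cartilage oligomeric matrix protein, were ordered differently across the libraries. ADAMTS12 was at 9.31, 10.4 and 11.5 FPKM in SM control and 6.01, 8.20 and 6.84 FPKM with BQ788, and every BQ788 library lay below every control. The log2 fold change was -0.51 (SE 0.12, 95% interval -0.81 to -0.22), and the limma adjusted p of 0.0795 missed the threshold. ADAMTS7 was at 4.30, 5.40 and 6.08 FPKM in SM control and 3.69, 6.63 and 7.32 FPKM with BQ788, so BQ788 held both the lowest and the highest libraries. The difference between the fold changes of the 2 genes was not tested. ADAMTS12 lies on chromosome Z from 10692168 to 10863128, and the sex of the chicks is not given in the sources used here.

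The procollagen N-proteinases ADAMTS2, ADAMTS3 and ADAMTS14 remove the amino-terminal propeptide of fibrillar procollagens. ADAMTS14 was at 1.16, 1.81 and 1.77 FPKM in SM control and 2.18, 2.06 and 2.17 FPKM with BQ788. ADAMTS2 was at 1.92, 2.21 and 1.77 FPKM in SM control and 2.36, 2.67 and 2.23 FPKM with BQ788. In both, each BQ788 library lay above each control, by a narrow margin for ADAMTS2, and neither passed (log2 fold changes 0.29, SE 0.12, and 0.20, SE 0.10; limma adjusted p = 0.224 and 0.275). ADAMTS2 overlaps RUFY1 on the opposite strand over 2806 bases (RUFY1 mean 16.7 FPKM), and reads in the shared stretch cannot be told apart without strand. ADAMTS3, which also processes a lymphatic growth factor in mammals, ranged from 5.14 to 7.78 FPKM with overlapping groups.

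ADAMTS10 and ADAMTS17, linked in humans to disorders of fibrillin microfibrils, were among the more abundant of the remaining genes. ADAMTS17 overlaps LYSMD4 on the same strand over 1808 bases (LYSMD4 mean 3.27 FPKM), so reads in the shared stretch cannot be assigned with certainty. ADAMTS17 was at 5.36, 6.44 and 7.43 FPKM in SM control and 5.95, 6.85 and 7.20 FPKM with BQ788. The groups overlapped (log2 fold change 0.06, SE 0.12, limma adjusted p = 0.829). ADAMTS10 ranged from 4.80 to 8.33 FPKM, with BQ788 replicate 1 highest. ADAMTS18 ranged from 2.28 to 4.36 FPKM, ADAMTS6 from 1.27 to 1.68 FPKM and ADAMTS19 from 0.663 to 1.67 FPKM, all with overlapping groups. ADAMTS13, known for cutting von Willebrand factor, was at 0.597 to 0.636 FPKM in SM control and 1.14, 0.474 and 0.431 FPKM with BQ788, and was not tested. It overlaps REXO4 on the opposite strand (mean 3.52 FPKM), so its own level is uncertain too.

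Of the ADAMTS-like genes, ADAMTSL5 had the largest fold change in size among the 29. ADAMTSL5 encodes a secreted protein that binds fibrillin and heparin. It was at 5.52, 5.95 and 7.003 FPKM in SM control and 1.60, 3.46 and 3.14 FPKM with BQ788. No BQ788 library reached the lowest control, and BQ788 replicate 1 was lowest of all. The group means were 6.16 ± 0.765 and 2.73 ± 0.996 FPKM (SD, n = 3 each), with a log2 fold change of -0.97 (SE 0.21, 95% interval -1.48 to -0.47, limma adjusted p = 0.0658). These values rest on 57 to 224 reads per library. The limma adjusted p was 0.0246 without BQ788 replicate 1, where the log2 fold change was smaller, at -0.73. Leaving out any other single library gave a limma adjusted p of 0.12 to 0.202. Without the filter on low genes it was 0.117. ADAMTSL5 lies on chromosome 28 from 3676497 to 3681232 and overlaps no other row.

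The other ADAMTS-like genes differed less. ADAMTSL2, whose product binds fibrillin microfibrils, was at 1.36, 1.53 and 1.96 FPKM in SM control and 2.80, 1.79 and 2.30 FPKM with BQ788, with a small overlap (log2 fold change 0.33, SE 0.15, limma adjusted p = 0.244). ADAMTSL1 was at 3.72, 2.26 and 4.83 FPKM in SM control and 3.14, 1.97 and 3.13 FPKM with BQ788, and replicate 2 was the lowest in each group. ADAMTSL3 stayed at 0.191 to 0.555 FPKM and was not tested.

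Genes that act with these families were described from fixed lists. Of 24 listed activators, inhibitors and receptors of matrix proteolysis, 21 were found and 19 tested, and 3 passed in limma, all lower with BQ788. Over all genes tested 2.99% passed, made up of 0.751% higher and 2.24% lower, so most genes that passed were lower. At an unadjusted p of 0.05 in limma 5 of the 19 passed, beside 22.7% of all genes tested. In 6 of the 19 the groups did not overlap, beside 29.3% of all genes tested. PAPLN, papilin, a relative of the ADAMTS family whose Drosophila form inhibits a procollagen N-proteinase in vitro, was at 15.8, 16.8 and 19.4 FPKM in SM control and 9.54, 10.7 and 12.0 FPKM with BQ788, so it fell by 0.64 on the log2 scale (limma adjusted p = 0.0406). PLAT, tissue plasminogen activator, was at 14.7, 15.4 and 18.2 FPKM in SM control and 10.2, 9.69 and 10.4 FPKM with BQ788 and fell by 0.62 (limma adjusted p = 0.0327). A2M, a broad protease trap of the macroglobulin family, was at 24.2, 26.9 and 23.9 FPKM in SM control and 18.1, 15.0 and 13.1 FPKM with BQ788 and fell by 0.67 (limma adjusted p = 0.0415). The groups of these 3 genes did not overlap. None of the 3 passed in a fit lacking 1 of the controls or lacking BQ788 replicate 2, since each of these fits called a single gene of the whole table, POSTN. They also missed the threshold without BQ788 replicate 3 (adjusted p = 0.0713 for PAPLN, 0.0868 for PLAT and 0.0910 for A2M in limma) and without the filter on low genes (0.0682, 0.0568 and 0.0720).

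The remaining members of that list did not pass, with a list median log2 fold change of -0.12 beside 0.02 over all genes. The largest fold change of the list in size was upward, in SERPINB2, an inhibitor of plasminogen activators. SERPINB2 was at 2.07, 2.01 and 2.28 FPKM in SM control and 2.59, 5.95 and 7.53 FPKM with BQ788, with every BQ788 library above every control (log2 fold change 0.94, SE 0.30, limma adjusted p = 0.138). PLAU, urokinase, another plasminogen activator, ranged from 5.11 to 6.00 FPKM, and FURIN, which removes the propeptide of membrane-type MMPs, from 27.5 to 29.8 FPKM. RECK, a membrane-anchored MMP inhibitor, was at 1.26, 1.21 and 1.21 FPKM in SM control and 2.15, 1.25 and 1.48 FPKM with BQ788. BSG, basigin, a surface protein known to induce MMPs, was the most abundant gene of the list at 665 to 844 FPKM.

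Of 23 listed substrates, mostly matrix and surface proteins, 20 were tested and 1 passed, also lower, beside 2.99% of all genes tested that passed. At an unadjusted p of 0.05 in limma 8 of the 20 passed, beside 22.7% of all genes tested. In 7 of the 20 the groups did not overlap, beside 29.3% of all genes tested. HSPG2, perlecan of basement membranes, was at 45.0, 50.5 and 51.6 FPKM in SM control and 35.7, 36.5 and 37.2 FPKM with BQ788 and fell by 0.41 on the log2 scale (limma adjusted p = 0.0386). Like the 3 genes above, HSPG2 passed when BQ788 replicate 1 was left out and did not when any other library was, and its limma adjusted p was 0.0583 without the filter on low genes. The list median was -0.36 beside 0.02 over all genes. VCAN, versican, a main substrate of ADAMTS1, was low at 1.57, 1.58 and 1.56 FPKM in SM control and 0.921, 0.357 and 0.544 FPKM with BQ788 and did not pass (limma adjusted p = 0.0572). ACAN, aggrecan, had a mean under 1 FPKM and was not tested. FN1, fibronectin, was at 50.3, 62.9 and 65.3 FPKM in SM control and 27.3, 31.7 and 41.0 FPKM with BQ788 and did not pass either (limma adjusted p = 0.0541).

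Of 21 listed metalloproteases outside the MMP and ADAMTS families, 13 were tested and 0 passed in limma. At an unadjusted p of 0.05, 4 passed, beside 22.7% of all genes tested. These 4 were TLL2, TLL1, ADAM12 and PAPPA. TLL1 and TLL2, tolloid-like proteases that process procollagens, lay higher in every BQ788 library than in any control. TLL2 was at 3.25, 3.58 and 3.58 FPKM in SM control and 4.00, 6.18 and 5.42 FPKM with BQ788 (limma adjusted p = 0.124), and TLL1 at 2.25, 2.36 and 3.46 and at 3.77, 3.63 and 3.95 FPKM (limma adjusted p = 0.156). ADAM12 was at 1.28, 1.25 and 1.56 FPKM in SM control and 1.09, 0.814 and 0.592 FPKM with BQ788 (limma adjusted p = 0.156). The sheddases ADAM10 and ADAM17 ranged from 19.7 to 23.5 FPKM and from 18.5 to 20.2 FPKM.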

How the data were processed

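The authors deposited 1 table of FPKM, with a gene length for each row. The submitters' processing notes name fastp and the build GRCg7b, with aligner, counter and strand setting not given in the sources used here. FPKM multiplied by gene length came out as whole reads in every library within 0.01 of a read. Gene identifiers matched a RefSeq table for chromosome names in 25616 cases and not in 3. Groups and replicate numbers came from sample titles. No sequence of a member was used here.

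Limma 3.58.1 in R 4.3.3 was fitted over every gene whose mean reached 1 FPKM, on log2(FPKM + 1), by group, with eBayes and its trend, two-sided, Benjamini-Hochberg adjusted. The fit was tested on simulated data. Values in every library are given for the 3 most abundant genes of each family, for members past an adjusted or unadjusted p of 0.05 and for members whose groups do not overlap; further genes are given where they neighbour these in role. Members, lists and rules were chosen with earlier results of these data known. Pathway lists name genes past the threshold, else up to 3 of smallest p, and the others named were chosen after their values were seen. Alternatives were other pseudocounts, filters, scalings, eBayes without a trend, limma voom, the replicate number as a block, leaving out each library, and, added after seeing the data, leaving out replicate 1 of both groups.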

Additional observations from a re-analysis of the deposited data

How the results depend on the processing

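The count of members past an adjusted p of 0.05 in limma was 0 and stayed 0 with other pseudocounts, with other filters and in limma voom. Median-of-ratios scaling returned the named fold changes and the 355 genes called of the main fit unchanged, so it was no separate check. The count of members was 1 (MMP7) under quantile normalization and with eBayes without a trend. It was 0 to 2 when single libraries were left out, with MMP7 and ADAMTSL5 called without BQ788 replicate 1. Without replicate 1 of both groups it was 0. Over all genes the count was 355, 68 without a filter, and from 1 to 1311 when single libraries were left out (1 without replicate 1 of both groups). It was 1 without any single SM control library or without BQ788 replicate 2, 21 without BQ788 replicate 3 and 1311 without BQ788 replicate 1. With the replicate number as a block it was 749, and 4 members were called (MMP9 at adjusted p = 0.0365, ADAMTSL5 at 0.0334, MMP7 at 0.0410 and ADAMTS12 at 0.0424). Deviations from the group means correlated at 0.50, 0.0744 and 0.569 between libraries of the same number, and at -0.53 to 0.127 between libraries of unlike number. SM control replicate 2 correlated better with BQ788 replicate 1 (0.118) and replicate 3 was closest to its own number. Pairing is not labelled, so the main fit used no block, and the count of members depends on that choice. Quantile normalization turned the sign of TIMP2 (0.014) and TIMP4 (0.027), and leaving out replicate 1 of both groups that of TIMP4 (0.091). Leaving out libraries gave both signs for TIMP2 (-0.048 to 0.039), TIMP3 (-0.13 to 0.54), TIMP4 (-0.20 to 0.19), MMP15 (-0.051 to 0.025), ADAMTS1 (-0.16 to 0.26) and ADAMTS17 (-0.051 to 0.15), none of them called. The cause of these changes was not tested. Counting error limits MMP7 (18.9% in its lowest library) and genes below 1 FPKM, but not only these. In the lowest library it was 13.25% to 14.74% for the tested genes ADAMTSL5, ADAMTS4, ADAMTS19, MMP13 and TIMP4. Below 1 FPKM, ADAMTS9 had a similar counting error, 13.74%.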

Other observations

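A few related rows fall outside the symbols used here and were chosen after their values were seen. LOC121108129, described in the deposited table as matrix metalloproteinase-14-like, lies on chromosome 35 from 391787 to 419492. It was as abundant as MMP2, at 104, 100.3 and 85.7 FPKM in SM control and 103, 76.1 and 72.7 FPKM with BQ788. Its groups overlapped (log2 fold change -0.21, SE 0.15, limma adjusted p = 0.442). MMP14 is the membrane-type protease best known for activating MMP2. MMP23A ranged from 0.198 to 0.457 FPKM and ADAMTSL2L from 0.510 to 0.867 FPKM, both below the level required for testing.

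Cartilage, melanocyte and nerve markers were measured in the same libraries. The 7 cartilage markers summed to 120 to 140 FPKM in SM control and 119 to 177 FPKM with BQ788. Of 4 tested, 1 passed in limma and fell (COL9A1), beside 2.99% of all genes tested that passed. At an unadjusted p of 0.05, 3 passed, beside 22.7% of all genes tested. CHAD, chondroadherin, had a log2 fold change of the opposite sign (1.02, SE 0.33) and did not pass (limma adjusted p = 0.138). It was at 28.5, 53.9 and 33.2 FPKM in SM control and 49.9, 82.7 and 108 FPKM with BQ788, and the groups overlapped. The 5 melanocyte markers summed to 3.96 to 4.53 FPKM in SM control and 0.984 to 3.14 FPKM with BQ788, and 0 of 2 tested passed in limma, against 1 at an unadjusted p of 0.05 (MLANA). The 6 Schwann cell and neuron markers summed to 149 to 158 FPKM and 114 to 145 FPKM, mostly SOX10. Of these, 3 of 4 tested passed in limma and fell (GAP43, NEFM and NEFL), beside 2.99% of all genes tested that passed. COL9A1, GAP43, NEFM and NEFL passed in limma without BQ788 replicate 1, and none of them passed when any other library was left out.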
